A study of Mus musculus with 12 samples.

Results

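The SR and hnRNP splicing factors were followed in livers of mice under acute iron overload and glucocorticoid treatment. They comprised all protein-coding rows of the deposited count table whose GENCODE symbol begins with Srsf or Hnrnp, together with Tra2a, Tra2b, Clk1 to Clk4, Srpk1, Srpk2, Ptbp1, Ptbp3, Rbm3 and Cirbp. This rule, which uses no measured value, gave 44 of the 55414 rows. By role they were 14 SR proteins, 6 SR protein kinases, 22 hnRNP proteins with Ptbp1 and Ptbp3 among them, and 2 cold-inducible RNA-binding proteins. A filter on low counts kept 42 for testing. Of the other 2, Srsf12 had 2 reads in FeSO4/PBS mouse 2 and 1 read in FeSO4/DEX mouse 1, and Srsf19 had 0 reads in all 12 libraries. A further 3 rows with matching symbols are processed pseudogenes and were left out; they held 0, 1 and 6 reads in all.

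Bulk RNAseq libraries came from liver tissue of 12 female C57Bl/6J mice, in 4 groups of 3. At the first intraperitoneal injection the mice received 300 mg/kg FeSO4, the iron salt that sets off the overload, or NaCl. After 6 h they received 10 mg/kg dexamethasone (DEX, a synthetic glucocorticoid) or PBS, and livers were taken 2 h later. The groups were NaCl/PBS, NaCl/DEX, FeSO4/PBS and FeSO4/DEX, all wild-type mice, which the study used at 8 to 12 weeks of age. Replicates are separate mice, so that p-values measure the spread between mice, and 1 time after each injection was sampled.

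SR proteins carry RNA-binding domains and a stretch rich in arginine and serine, and bind exonic enhancers to favour the use of nearby splice sites. Kinases of the CLK and SRPK families phosphorylate that stretch, which sets where SR proteins reside in the nucleus and how active they are. Many hnRNP proteins coat nascent transcripts and oppose exon inclusion, so that the choice of exons often depends on the balance of both families. Many of their own genes hold a "poison" exon that sends the transcript to nonsense-mediated decay, by which the proteins limit their own level. A count per gene adds all isoforms together, and does not tell productive transcripts from those with a poison exon or a retained intron.

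Counts per gene were tested for 13857 genes in 1 edgeR quasi-likelihood model of the 4 groups. A gene was called higher or lower at a Benjamini-Hochberg adjusted p (edgeR FDR) of 0.05 or less. Effects are log2 fold changes (LFCs), and levels are normalized counts, scaled with edgeR's TMM factors to a common library size. Library totals lay between 16335651 and 23827340 reads on genes. The hepatocyte markers Alb, Apoa1, Ttr, Cps1, Ass1, Tat, Hnf4a and Serpina1a all passed the filter, and their levels moved with the treatments as given with the other markers. Scaling matters here: the median LFC of all genes after FeSO4 was -0.02 with TMM factors and -0.34 with library size alone, and calls below are relative to the first. The share of all called genes that were higher was 49.9% with the first and 28.2% with the second scaling after FeSO4 in PBS mice, 51.7% and 34.2% after FeSO4 in DEX mice, and 47.6% and 25.8% after DEX in NaCl mice.

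The splicing factors were abundant liver genes. Their spread within a group was smaller than that of all tested genes, which were not matched to them for level. Their median level was 1277 normalized counts, against 232 for all tested genes, and 40 of the 42 lay above that median of all genes. Within a group, the median SD of a member on the log2 scale lay between 0.080 in NaCl/PBS and 0.152 in FeSO4/PBS mice, against 0.144 and 0.239 for all tested genes in the same groups. To compare genes with each other, the TMM-scaled CPM (reads scaled to a common total) were divided by the kilobases of annotated exons. On that scale the highest levels in NaCl/PBS mice were those of Srsf5 with 31.2 ± 3.02 (SD, n = 3), Hnrnpa2b1 with 29.5 ± 1.25 and Srsf2 with 28.3 ± 1.71. These 3 do not differ beyond their spread, and with the length of the longest transcript in place of all exons Hnrnpa2b1 came first with 56.1. The lowest tested members were Hnrnpr with 1.36 and Srsf9 with 1.28 CPM per kilobase.

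After FeSO4 alone most SR proteins and many hnRNP proteins rose, while SR protein kinases mostly fell or did not pass the test. In FeSO4/PBS against NaCl/PBS mice 23 of 42 members (54.8%) were called higher and 9 (21.4%) lower, where 27.2% of all tested genes were called higher and 27.3% lower. By role, 10 of 12 tested SR proteins were higher and 2 lower, 10 of 22 hnRNP proteins were higher and 4 lower, 1 of 6 kinases was higher and 3 lower, and both cold-inducible genes were higher. The median LFC was 0.58 over SR proteins, 0.18 over hnRNP proteins and -0.20 over the kinases, and -0.02 over all genes. An LFC beyond 1 was reached by 7 of the higher members and 1 of the lower. The share of all genes beyond that LFC was not computed. The median size of an LFC was 0.46 over the members and 0.58 over all genes. With library size alone as scaling, 12 members were called higher and 14 lower, where 2285 of all 13857 genes were higher and 5829 lower. Each of the 23 still lay above the median of all genes under that scaling. The higher calls of Srsf2, Srsf5, Srsf6, Srsf10, Tra2a, Clk1, Hnrnpc, Hnrnpf, Hnrnph2, Hnrnpk and Hnrnpl were lost with it.

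**Figure D1:**
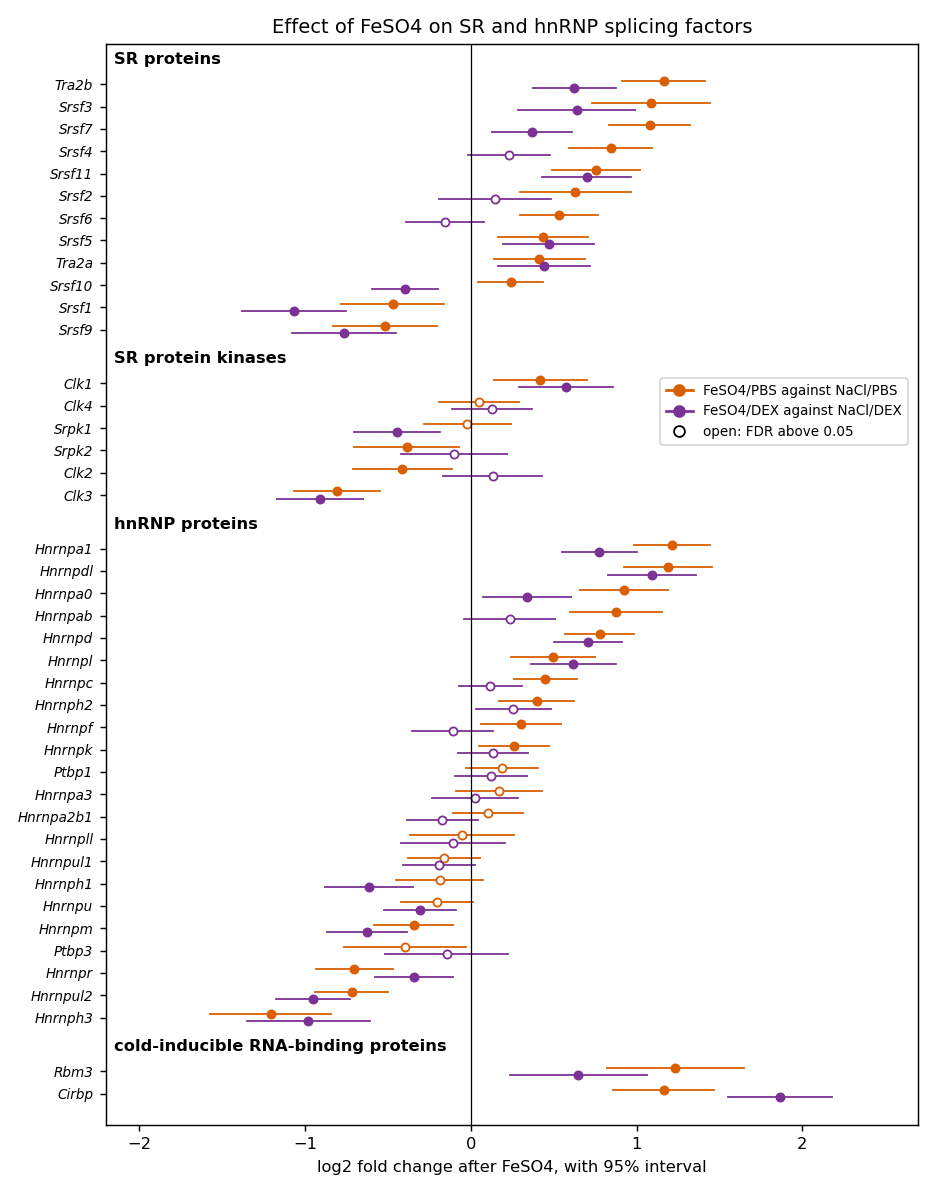
LFC with its 95% interval (x axis) of the 42 tested members after FeSO4, in mice that then received PBS (orange) or DEX (purple), ordered within each role; filled points have an edgeR FDR of 0.05 or less. Most SR proteins lie to the right of 0 in PBS mice, Clk3, Hnrnph3 and Hnrnpul2 lie to the left in both, and Srsf10 lies on opposite sides.

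Among SR proteins, Tra2b, Srsf3 and Srsf7 rose most. Tra2b, which favours exons with purine-rich enhancers, had 339.5, 437 and 448 normalized counts in the 3 NaCl/PBS animals against 926, 922 and 892 after FeSO4/PBS, an LFC of 1.16 (SE 0.12, edgeR FDR 2.4e-06). Srsf3, a shuttling SR protein that also serves mRNA export, had 581, 908 and 796 against 2022, 1331 and 1505, an LFC of 1.09 (SE 0.17, edgeR FDR 9.1e-05). Srsf7, its close relative with a zinc knuckle, had 516, 568 and 513 against 1302, 969.5 and 1101, an LFC of 1.08 (SE 0.11, edgeR FDR 3.6e-06). In these 3 genes every FeSO4/PBS mouse lay above every NaCl/PBS mouse, and FeSO4/PBS mouse 1 was the highest for all 3, by a wide margin for Srsf3. Without that mouse the LFCs of Srsf3 and Srsf7 were 0.90 and 0.96, and both were still called.

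Srsf4, a long SR protein, had 859, 784 and 839.5 in NaCl/PBS mice and 1559, 1498 and 1403 after FeSO4/PBS, an LFC of 0.85 (SE 0.12, edgeR FDR 3.9e-05). Srsf6 had 1707, 1747 and 1664 against 2701, 2304 and 2398, an LFC of 0.53 (SE 0.11, edgeR FDR 0.00097). Tra2a, the paralog of Tra2b, rose less, from 334, 378 and 438 to 496, 509.7 and 524, an LFC of 0.41 (SE 0.13, edgeR FDR 0.014). The groups did not overlap for any of these genes, but the call for Tra2a was lost without NaCl/PBS mouse 1 (LFC 0.32, edgeR FDR 0.072). Srsf11, Srsf2 and Srsf5 also rose, with LFCs of 0.75, 0.63 and 0.44. The exons of Srsf5 overlap those of Slc10a1 on the opposite strand, a hepatocyte bile acid transporter with 156262 reads over all libraries against 44258 for Srsf5. Slc10a1 was not called after FeSO4, with LFCs of -0.15 (edgeR FDR 0.36) in PBS and -0.12 (edgeR FDR 0.51) in DEX mice. Its part in the counts of Srsf5 was not tested.

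Srsf10, which acts as a general splicing repressor once dephosphorylated, showed the smallest rise. It had 397, 400.2 and 403 in NaCl/PBS mice and 481, 474 and 463 after FeSO4/PBS, an LFC of 0.24 (SE 0.09, edgeR FDR 0.04). The mice of each group lay close together and the groups apart, yet the call was lost in 9 of 12 fits that left out 1 mouse, those without any NaCl/PBS, NaCl/DEX or FeSO4/PBS mouse, with FDRs up to 0.098, and with library size alone the LFC was -0.08. The 2 SR proteins that fell were Srsf1 and Srsf9. Srsf9 went from 280.5, 240.3 and 246 to 212, 169.9 and 153, an LFC of -0.52 (SE 0.15, edgeR FDR 0.0079), without overlap. Srsf1, the founding SR protein, went from 1720, 1795 and 1704 to 1632, 1026 and 1108, an LFC of -0.47 (SE 0.14, edgeR FDR 0.013), and was chosen for values per mouse after they had been seen. FeSO4/PBS mouse 1 was much nearer to the NaCl/PBS mice than the other two, and the call was lost without mouse 2 (LFC -0.34, FDR 0.064) or mouse 3 (LFC -0.38, FDR 0.059) of that group.

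**Figure D2:**
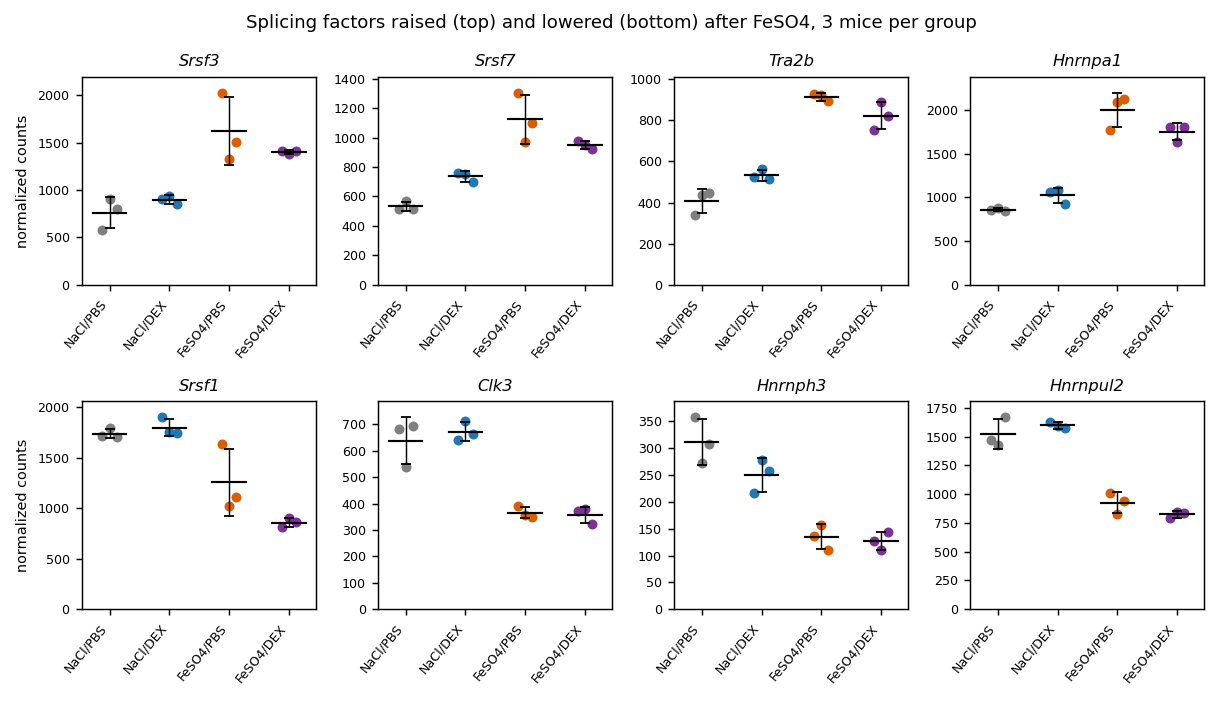
Normalized counts (y axis, from 0) of 4 members that rose after FeSO4 (top row) and 4 that fell (bottom row), 1 point per mouse, with the mean and SD (bars) of the 3 mice of each group. FeSO4/PBS mouse 1 stands above its group for Srsf3, Srsf7 and Srsf1.

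The SR protein kinases moved less and in both directions. Clk1, whose own transcript is stored with retained introns and completed under stress, had 1241, 1055 and 1137 in NaCl/PBS mice and 1330, 1801 and 1464 after FeSO4/PBS, an LFC of 0.42 (SE 0.13, edgeR FDR 0.015). Clk4, its closest relative, had 881, 692 and 762 against 745, 823 and 851, with an LFC of 0.05 and a 95% interval of -0.19 to 0.29. Clk2 had 307, 280.5 and 272 against 231, 215 and 200.2, an LFC of -0.41 (SE 0.14, edgeR FDR 0.021). Clk3 fell furthest of the kinases, and no FeSO4/PBS mouse reached the lowest NaCl/PBS mouse. It had 683, 538 and 696 against 389, 356 and 351, an LFC of -0.81 (SE 0.12, edgeR FDR 7.5e-05). Edc3, whose exons overlap those of Clk3 on the opposite strand, fell as well (LFC -0.72, edgeR FDR 0.00085), and its part in the counts of Clk3 was not tested.

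Of the SRPK kinases, which act in the cytoplasm and drive nuclear import of SR proteins, Srpk1 had 374, 404 and 380 against 429, 352 and 359.7, an LFC of -0.02 with a 95% interval of -0.28 to 0.24. Srpk2 had 469.6, 465 and 462 against 314, 388 and 366, an LFC of -0.39 (SE 0.15, edgeR FDR 0.038). Of the small kinase effects, that of Clk1 was lost without NaCl/PBS mouse 2 (FDR 0.060) or FeSO4/PBS mouse 2 (FDR 0.080), and that of Clk2 without NaCl/PBS mouse 1 (FDR 0.081) or FeSO4/PBS mouse 3 (FDR 0.070). The call for Srpk2 was lost when any mouse of the NaCl/PBS group or mouse 1 or 3 of the FeSO4/PBS group was left out, with FDRs up to 0.105.

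Reads of 2 members can be set against each other within a mouse, which needs no scaling between libraries; the pairs were chosen after the values had been seen. Reads of Clk1 per read of Clk3 lay between 1.63 and 1.96 in NaCl/PBS and between 3.42 and 5.06 in FeSO4/PBS mice. In DEX mice the same ratio lay between 1.60 and 1.80 after NaCl and between 4.20 and 5.74 after FeSO4. For Srsf3 per read of Srsf1 the ranges were 0.338 to 0.506 in NaCl/PBS, 0.475 to 0.538 in NaCl/DEX, 1.24 to 1.36 in FeSO4/PBS and 1.53 to 1.73 in FeSO4/DEX mice. Thus Srsf1 had more reads than Srsf3 in every NaCl mouse and fewer in every FeSO4 mouse, and FeSO4/PBS mouse 1 did not stand apart in this ratio.

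Among hnRNP proteins, Hnrnpa1 and Hnrnpdl rose most. Hnrnpa1, a repressor that binds exonic and intronic silencers, had 858, 881 and 846 in NaCl/PBS mice and 1773, 2090 and 2131 after FeSO4/PBS, an LFC of 1.21 (SE 0.11, edgeR FDR 7.2e-07). Hnrnpdl, a paralog of the AU-rich element binding protein Hnrnpd, had 1366, 1345 and 1354 against 3564, 2696 and 3011, an LFC of 1.19 (SE 0.12, edgeR FDR 3.2e-06). For both genes the FeSO4/PBS mice lay well above all NaCl/PBS mice. Hnrnpa1 and Srsf3 have processed pseudogenes that can share reads with them, and their levels are uncertain to that extent. The exons of Hnrnpa1 also overlap those of Cbx5 on the opposite strand, which moved the other way (LFC -1.21, edgeR FDR 5.3e-06).

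Relatives of these genes did not move to the same extent. Hnrnpa2b1, the nearest A/B type relative with a much higher level, had an LFC of 0.10 with a 95% interval of -0.11 to 0.32, and Hnrnpa3 had 0.17 with an interval of -0.09 to 0.43; with library size alone both LFCs were below 0, at -0.21 and -0.14. Reads of Hnrnpa1 per read of Hnrnpa2b1 lay between 0.134 and 0.147 in NaCl/PBS and between 0.257 and 0.343 in FeSO4/PBS mice, and between 0.139 and 0.165 in NaCl/DEX and 0.266 and 0.328 in FeSO4/DEX mice. Hnrnpa0 and Hnrnpab rose by 0.93 and 0.88, and Hnrnpd by 0.78.

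Smaller rises were called for Hnrnpl, which binds CA repeats (0.50), Hnrnpc, which binds uridine tracts (0.45), Hnrnph2 (0.40), Hnrnpf (0.30) and Hnrnpk, which binds cytidine-rich sequence (0.26). The last 2 of these are weak calls. That of Hnrnpf was lost without any NaCl/PBS mouse or without FeSO4/PBS mouse 1, with FDRs up to 0.119. That of Hnrnpk was lost without any NaCl/PBS mouse, FeSO4/PBS mouse 3 or FeSO4/DEX mouse 3, with FDRs up to 0.12, and both had an LFC below 0 with library size alone.

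The largest fall of all members was that of Hnrnph3, a small relative of the G-tract binding proteins Hnrnph1 and Hnrnpf. It had 357, 272 and 307 in NaCl/PBS mice and 136, 158 and 111 after FeSO4/PBS, an LFC of -1.21 (SE 0.17, edgeR FDR 4.7e-05). Hnrnpul2 had 1471, 1431 and 1667 against 1007, 831 and 942, an LFC of -0.72 (SE 0.10, edgeR FDR 5.4e-05). Hnrnpr, a relative of Syncrip, had 660.2, 624 and 612 against 403, 419 and 342, an LFC of -0.70 (SE 0.11, edgeR FDR 0.00011). In these 3 genes no FeSO4/PBS mouse reached the lowest mouse of the NaCl/PBS group. Hnrnpm, the fourth hnRNP gene that fell, had an LFC of -0.34, and its call was lost without NaCl/PBS mouse 2 (FDR 0.071) or FeSO4/PBS mouse 2 (FDR 0.083).

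Some of the lowered genes overlap others on the opposite strand that fell too, namely Pbld2 over Hnrnph3 with an LFC of -0.62 (edgeR FDR 0.0023), Ttc9c over Hnrnpul2 with -1.80 (FDR 4.4e-06) and Gatc over Srsf9 with -0.42 (FDR 0.023). Pbld2 held 22486 reads against 2613 for Hnrnph3. In DEX mice, where Hnrnph3 fell too, Pbld2 had an LFC of -0.15 (FDR 0.44), and Rufy2, which also overlaps Hnrnph3, rose by 0.86 (edgeR FDR 0.012). Marchf2, on the same strand as Hnrnpm, was lower in PBS mice (LFC -0.24, edgeR FDR 0.045) and not called in DEX mice (FDR 0.87). Among the raised genes, Gla over Hnrnph2 rose in PBS mice (LFC 0.74, edgeR FDR 0.0017) and in DEX mice (0.76, FDR 0.0021). Gm12992 over Srsf4 rose in PBS mice (1.25, FDR 0.0037) and was not called in DEX mice (0.18, FDR 0.66). Mfsd11 over Srsf2, Gm20337 over Srsf5 and Rmi1 over Hnrnpk were called lower in PBS mice (-0.56, -1.64 and -0.93). The libraries were stranded, but the strand setting of the counting is not given in the sources used here, and the part of these neighbours was not tested.

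Ptbp1 and Ptbp3, which repress exons next to pyrimidine tracts, did not pass the test after FeSO4. Ptbp1 had 1584, 1607 and 1450 in NaCl/PBS mice and 1775, 1771 and 1738 after FeSO4/PBS, an LFC of 0.19 (95% interval -0.03 to 0.40), which was -0.13 with library size alone. Ptbp3 had 1686, 1610 and 1468 against 833, 1371 and 1419, an LFC of -0.40 (95% interval -0.77 to -0.03, edgeR FDR 0.066). FeSO4/PBS mouse 1 lay far below the other two for Ptbp3, and the Ptbp1 groups did not overlap. Also not called were Hnrnpll, Hnrnpul1, Hnrnph1 and Hnrnpu, with LFCs between -0.20 and -0.05.

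Rbm3 and Cirbp, small RNA-binding proteins with a glycine-rich tail that are known to rise when cells or animals are mildly cooled, both rose. Rbm3 had 476, 499 and 372 in NaCl/PBS mice and 1354, 890.1 and 921 after FeSO4/PBS, an LFC of 1.23 (SE 0.19, edgeR FDR 0.00011). The highest of the latter group was mouse 1, and with it left out the LFC was 1.02. Cirbp had 344, 263 and 224 against 643, 623 and 599, an LFC of 1.16 (SE 0.14, edgeR FDR 1.2e-05). For both genes every FeSO4/PBS mouse lay above every NaCl/PBS mouse, and the 3 Cirbp values after FeSO4 lay close together.

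Promoters of the members were read from GRCm39 at the start of the canonical transcript of GENCODE vM39, from 250 bases before to 50 bases after it, and searched on both strands for short motifs. The 200 bases before the start are shown for Cirbp, the member with the largest FeSO4 effect in DEX mice, and for Srsf7 and Tra2b, the 2 tested members with part of a heat-shock element. Sequences run 5′ to 3′ on the strand of the gene, all but that of Cirbp from the minus strand, with the motifs in capitals. The start used for Cirbp lies inside the annotated span of the gene, which begins further upstream.
Cirbp, chr10:80003412-80003611, with none of the motifs below: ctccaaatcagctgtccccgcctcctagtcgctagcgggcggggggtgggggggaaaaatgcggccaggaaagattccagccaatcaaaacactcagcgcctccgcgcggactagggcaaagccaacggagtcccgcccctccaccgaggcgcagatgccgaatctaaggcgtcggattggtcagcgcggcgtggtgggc
Srsf7, chr17:80514880-80515079, with part of a heat-shock element and an ETS site: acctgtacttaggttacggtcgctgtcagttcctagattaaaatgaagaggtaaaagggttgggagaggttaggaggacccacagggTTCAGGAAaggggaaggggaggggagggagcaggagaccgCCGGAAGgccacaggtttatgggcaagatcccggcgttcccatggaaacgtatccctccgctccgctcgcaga
Tra2b, chr16:22084825-22085024, with part of a heat-shock element: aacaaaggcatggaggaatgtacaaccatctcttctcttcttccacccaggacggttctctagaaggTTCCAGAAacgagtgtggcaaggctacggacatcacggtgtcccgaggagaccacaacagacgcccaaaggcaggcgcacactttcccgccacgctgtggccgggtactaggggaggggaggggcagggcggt

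CCGGAAG, the core bound by ETS factors, was present in the promoters of 7 of 42 tested members (16.7%) against 10.3% of 21757 promoters of coding genes. TTCNNGAA, part of a heat-shock element, was present in 2 of 42 (4.76%) against 7.98%, the E-box CACGTG in 5 of 42 against 7.82%, and the AP-1 motif TGANTCA in 4 of 42 against 7.15%. A match describes the letters in the window and does not show that a factor binds there. The median GC content was 59.3% over the members' promoters and 54.3% over all.

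Other parts of the splicing machinery were described with 5 lists of genes in the same comparison. In it 27.2% of all tested genes were called higher and 27.3% lower. Of 51 tested core spliceosome genes 32 were higher and 1 lower after FeSO4, with a median LFC of 0.49. U2af1 (1.82), which reads the end of the intron, Sf1 (1.61), which binds the branch point, and Sf3a2 (1.58) rose most, and Luc7l3 (-0.73) fell. Of 48 other splicing regulators 24 were higher and 10 lower, median 0.33, among them Bclaf1 (1.76), Rnps1 (1.72) and Sfpq (1.31), against Ddx17 (-1.70), Tia1 (-1.70) and Fubp1 (-0.89). With library size alone the counts were 18 higher and 7 lower for the core, and 15 higher and 16 lower for the regulators. Of all 13857 tested genes 2285 were higher and 5829 lower with that scaling.

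Of 9 tested genes for phosphorylation, dephosphorylation and import of SR proteins 4 were higher and 1 lower, median 0.32, with Dyrk1a at 1.53 and Dyrk1b at -2.31. Scaled by library size alone, 1 was higher and 4 were lower, and 2 were higher with TMM factors without NaCl/PBS mouse 2 or 3 or without FeSO4/PBS mouse 3, while 2 were lower without FeSO4/PBS mouse 1. Of 15 genes of nonsense-mediated decay, the route that removes transcripts with poison exons, 8 were higher and 3 lower, median 0.51, with Smg1 at 1.59 and Upf2 at -0.92. Of 13 heat-shock genes 6 were higher and 4 lower, median 0.27, where 27.2% of all tested genes were higher and 27.3% lower. Bag3 (2.68) and Hspa8 (1.38) rose, while Hspa1b (-2.31) and Dnajb1 (-0.50) fell.

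**Figure D3:**
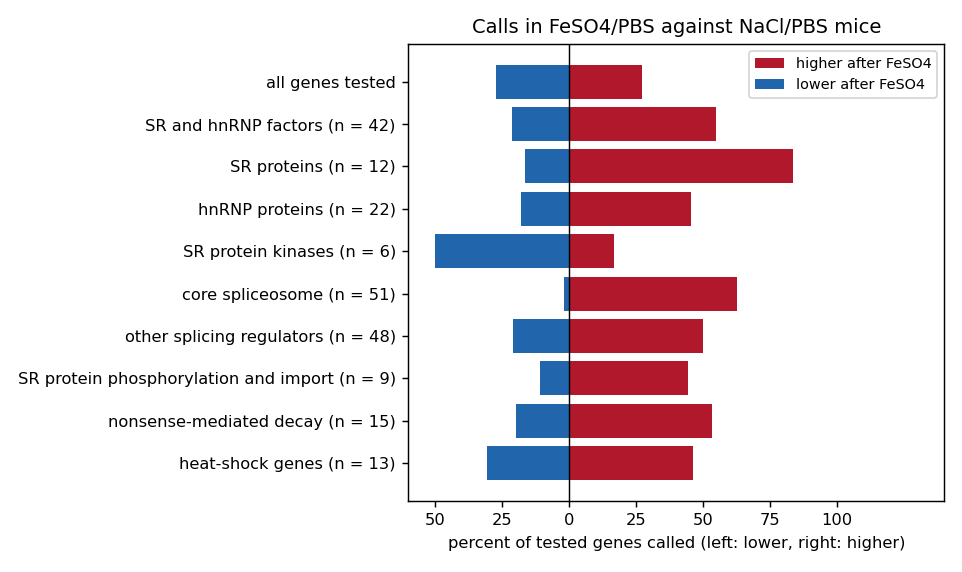
Share of tested genes (x axis, percent) called higher (red, to the right) or lower (blue, to the left) in FeSO4/PBS against NaCl/PBS mice, for all tested genes, the members, 3 of their roles and 5 other lists; the role of the 2 cold-inducible genes, both higher, is not drawn. Among the bars drawn, that of SR proteins reaches furthest to the right (83.3% higher) and that of the kinases furthest to the left (50% lower). All calls drawn use TMM factors.

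Markers of other cell types moved at the same time. The summed normalized counts of 8 neutrophil markers lay between 112 and 297 in NaCl/PBS and between 723 and 882 in FeSO4/PBS mice, with 4 of 5 tested markers higher. Those of 7 Kupffer cell and macrophage markers lay between 7607 and 8857 and between 3889 and 4581, with all 7 lower. In DEX mice the neutrophil sum lay between 74.5 and 118 after NaCl and between 561 and 670 after FeSO4. For 5 cholangiocyte markers, 2 of them called higher and 0 lower, the sum lay between 533 and 683 in NaCl/PBS and between 1069 and 1376 in FeSO4/PBS mice. For mesothelial markers, 1 of 3 tested called lower, it lay between 43.0 and 89.7 and between 16.1 and 28.1. For the 8 hepatocyte markers, 5 called higher and 0 lower, it lay between 1813844 and 2186416 in NaCl/PBS and between 2420358 and 2687765 in FeSO4/PBS mice, and between 2302409 and 2618814 in NaCl/DEX mice. None of these ranges after FeSO4/PBS overlapped with that of NaCl/PBS mice. The sums of lymphocyte (2 lower of 7 tested), endothelial (2 higher, 3 lower of 7) and stellate cell markers (1 and 1 of 5) overlapped between both groups, and 4 of 5 pancreatic acinar markers were at 0. In bulk liver, fewer cells of a type and less RNA per cell cannot be told apart, and the part of these shifts in the members' changes was not tested.

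The FeSO4 effect was measured a second time in mice that received DEX, which share no animal with the first comparison. In FeSO4/DEX against NaCl/DEX mice 14 members (33.3%) were called higher and 11 (26.2%) lower, where 22.4% of all genes were higher and 20.9% lower. All 14 had also been called higher in PBS mice, which is 60.9% of the 23 higher there, and 7 were lower in both, 77.8% of the 9 lower in PBS mice and 63.6% of the 11 lower in DEX mice. In DEX mice 9 members were higher and 15 lower with library size alone, where 2151 of all 13857 genes were higher and 4146 lower. The sign of the LFC was the same in 37 of 42 members. For all tested genes the shares called in both comparisons or with the same sign were not computed. Pearson's r of the LFCs was 0.847 over the members and 0.797 over all genes, as a description across genes, which share their libraries and are not replicates.

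Of the 42 members 31 had a lower LFC in DEX than in PBS mice, where 47.8% of all genes did. The 8 members that were higher in PBS mice and not called in DEX mice were Srsf2, Srsf4, Srsf6, Hnrnpab, Hnrnpc, Hnrnpf, Hnrnph2 and Hnrnpk. Clk2 and Srpk2 were lower in PBS mice alone by these calls, and Srpk1, Hnrnph1 and Hnrnpu in DEX mice alone, with LFCs of -0.44, -0.61 and -0.31. The call for Hnrnpu was lost without any NaCl/DEX mouse and without FeSO4/DEX mouse 1 or 3, with FDRs up to 0.070. Among these 13 members the test of the difference between both effects passed for Srsf4 and Srsf6 and not for the others.

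Cirbp had 177, 177 and 162 in NaCl/DEX and 622, 579 and 678 in FeSO4/DEX mice, an LFC of 1.86 (SE 0.15, edgeR FDR 4.5e-07), the largest effect of any member. Hnrnpdl had 1305, 1184 and 1128 against 2859, 2614 and 2255, an LFC of 1.10 (SE 0.12, edgeR FDR 1.0e-05). Hnrnpa1 had 1059, 1082 and 926 against 1810, 1638 and 1805, an LFC of 0.78 (SE 0.11, edgeR FDR 5.2e-05). None of these groups overlapped. Rbm3 had 624, 470.1 and 375 against 809, 744 and 749, an LFC of 0.65 (SE 0.19, edgeR FDR 0.014). Its NaCl/DEX mice were widely spread, and without the lowest of them, mouse 3, the LFC was 0.49 and the FDR 0.071.

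Among SR proteins, Srsf3 had 902, 942 and 855 in NaCl/DEX and 1408, 1380 and 1413 in FeSO4/DEX mice, an LFC of 0.64 (SE 0.17, edgeR FDR 0.0064). Tra2b had 523, 564 and 512 against 755, 888 and 823, an LFC of 0.62 (SE 0.12, edgeR FDR 0.00069). Srsf7 had 762, 749 and 696 against 978, 953 and 922, an LFC of 0.37 (SE 0.11, edgeR FDR 0.017). The groups were apart for all 3, but the Srsf7 call was lost without NaCl/DEX mouse 3 (FDR 0.066), FeSO4/DEX mouse 1 (FDR 0.0504) or FeSO4/DEX mouse 2 (FDR 0.062). Srsf11, Srsf5 and Tra2a rose by 0.70, 0.47 and 0.44, and Tra2a was not called without FeSO4/DEX mouse 2 (LFC 0.27, FDR 0.114).

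The falls of Srsf1, Clk3, Srsf9, Hnrnpul2 and Hnrnpm were somewhat larger in DEX than in PBS mice, and those of Hnrnph3 and Hnrnpr smaller. The test of the difference passed for none of these 7 genes in the edgeR model of all groups, and for Srsf1 it passed with DESeq2, with no filter on low counts and without FeSO4/PBS mouse 2. Srsf1 had 1899, 1752 and 1745 in NaCl/DEX and 812, 903 and 859.7 in FeSO4/DEX mice, an LFC of -1.07 (SE 0.15, edgeR FDR 5.5e-05), with groups far apart. Clk3 had 641, 712 and 666 against 372, 378 and 323, an LFC of -0.91 (SE 0.12, edgeR FDR 4.3e-05), and Clk1 had 1026, 1282 and 1094 against 1562, 1656 and 1856, an LFC of 0.58 (SE 0.13, edgeR FDR 0.0029). The opposite movement of both kinases was thus called in each of the 2 comparisons with TMM factors. With library size alone Clk1 was not called in PBS mice (LFC 0.10, edgeR FDR 0.54). Hnrnpul2 fell by 0.95 on the log2 scale (FDR 7.0e-06), Hnrnph3 by 0.98 (FDR 0.00044), Srsf9 by 0.76, Hnrnpm by 0.63 and Hnrnpr by 0.34 (edgeR). Of these, Hnrnpr was not called without NaCl/DEX mouse 1 (FDR 0.061), NaCl/DEX mouse 2 (FDR 0.069) or FeSO4/DEX mouse 1 (FDR 0.064). Hnrnpl and Hnrnpd rose by 0.62 and 0.71, and Hnrnpa0 by 0.34, a call that was lost in 8 of 12 fits without 1 mouse, all but those without a FeSO4/PBS mouse and that without NaCl/DEX mouse 2.

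DEX alone raised a small set of SR protein genes. In NaCl/DEX against NaCl/PBS mice 6 members (14.3%) were called higher and 1 (2.38%) lower, where 6.5% of all genes were higher and 7.15% lower. Of the 6, 5 were SR proteins (Srsf4, Srsf7, Srsf10, Srsf6 and Tra2b) and 1 was Hnrnpab, and the gene that fell was Cirbp. None of the kinases was called, and no member had an LFC beyond 1. This comparison shares the NaCl/PBS mice with the FeSO4 effect in PBS mice. With library size alone 1 member was higher and 5 were lower, where 618 of all 13857 genes were higher and 1776 lower. The 6 members called higher with TMM factors all stayed above the median of all genes, which moved to -0.18.

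Srsf4 had the largest DEX response, with 859, 784 and 839.5 in NaCl/PBS and 1639, 1266 and 1270 in NaCl/DEX mice, an LFC of 0.75 (SE 0.12, edgeR FDR 0.00061), and stayed called under each scaling. Srsf10 had 397, 400.2 and 403 against 535, 543 and 514, an LFC of 0.41 (SE 0.09, edgeR FDR 0.0087), and the mice of both groups lay close together. Srsf7 had 516, 568 and 513 against 762, 749 and 696, an LFC of 0.47 (SE 0.11, edgeR FDR 0.013). In all 3 genes every NaCl/DEX mouse lay above every NaCl/PBS mouse. Srsf6 had 1707, 1747 and 1664 against 2009, 2529 and 2187, an LFC of 0.39 (SE 0.11, edgeR FDR 0.027). Tra2b had 339.5, 437 and 448 against 523, 564 and 512, an LFC of 0.39 (SE 0.12, edgeR FDR 0.041). Hnrnpab had 2189, 2221 and 2169 against 2946, 2910 and 3014, an LFC of 0.43 (SE 0.13, edgeR FDR 0.038). These groups did not overlap either.

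Cirbp moved the other way, from 344, 263 and 224 to 177, 177 and 162, an LFC of -0.69 (SE 0.15, edgeR FDR 0.0057), while Rbm3 had an LFC of 0.12 with a 95% interval of -0.29 to 0.54. NaCl/PBS mouse 1 was the highest for Cirbp, and without it the LFC was -0.49 (edgeR FDR 0.036). Ptbp1, Srpk1, Clk2 and Srpk2 had LFCs of -0.23, 0.32, -0.31 and -0.26 and were not called. The count of higher members was sensitive to single mice. Without NaCl/PBS mouse 1 only Srsf4 and Srsf10 were called, and 3 members were called without NaCl/PBS mouse 3 or any 1 NaCl/DEX mouse. The higher calls over all tested genes fell too, from 901 to 606 without NaCl/PBS mouse 1 and 614 without mouse 3. They lay between 666 and 694 without 1 NaCl/DEX mouse. Srsf4, Srsf10 and Cirbp were called in all 12 such fits, Hnrnpab in none that left out a NaCl mouse, and Srsf6, Srsf7 and Tra2b in part of them, with FDRs up to 0.132, 0.059 and 0.173. With no filter on low counts Srsf10 and Tra2b were not called.

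In mice with iron overload no member passed the test for DEX. In FeSO4/DEX against FeSO4/PBS mice 0 members were called higher and 0 lower with edgeR, and 0% of all genes in either direction. DESeq2 called 0 members as well. At an unadjusted p under 0.05 edgeR gave 0 higher and 12 lower members (28.6%), where 3.29% of all genes were lower at that p, and DESeq2 gave 13 lower members. The LFC was below 0 in 30 of 42 members, with a median of -0.13 over the members against 0.0048 over all genes. The number of lower members at that p ranged from 4 to 15 when 1 mouse was left out. It was lowest without FeSO4/DEX mouse 3, where 2.24% of all genes were lower at that p. It was highest without FeSO4/PBS mouse 2, where 5.99% of all genes were lower. When the libraries of the comparison were fitted alone, 6 members and 2.07% of all genes were lower.

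The largest of these differences was that of Srsf1, with 1632, 1026 and 1108 in FeSO4/PBS and 812, 903 and 859.7 in FeSO4/DEX mice, an LFC of -0.55 (SE 0.15, edgeR FDR 0.7). It was the only member called when no filter on low counts was used, where 99 of 25013 genes were called higher and 71 lower. Rbm3 had 1354, 890.1 and 921 against 809, 744 and 749, an LFC of -0.46 (FDR 0.76). Cirbp had an LFC of 0.01 with a 95% interval of -0.29 to 0.31, and Srsf4 of 0.14 with an interval of -0.11 to 0.38.

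**Figure D4:**
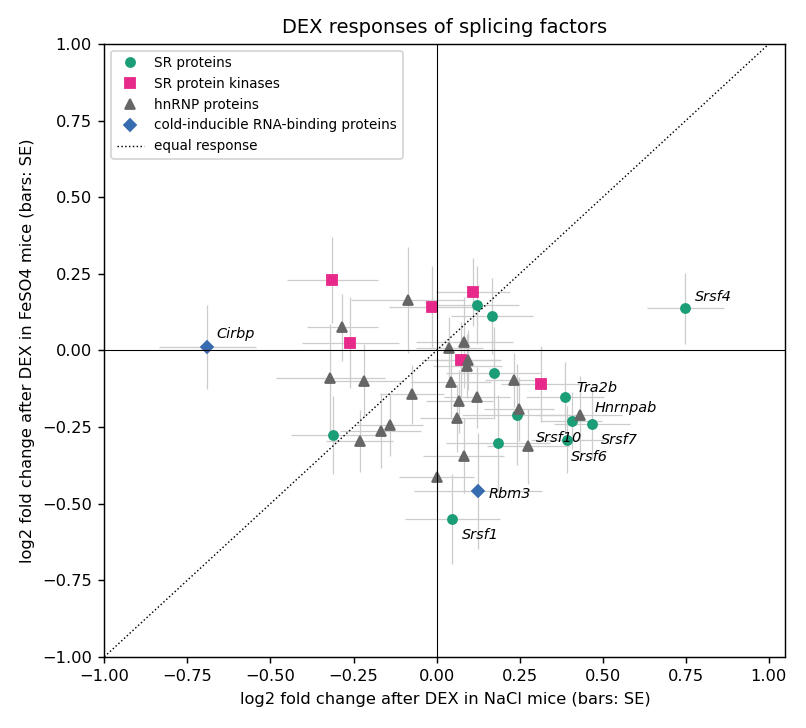
LFC after DEX in NaCl mice (x axis) and in FeSO4 mice (y axis) of the 42 tested members, with SEs as bars and the dotted line where both are equal; colours and shapes give the role. Srsf4, Srsf7, Srsf10 and Srsf6 lie to the right of 0 and far below the line, and Cirbp lies to the left and above it.

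The difference between the DEX responses with and without iron overload, which equals the difference between the FeSO4 effects with and without DEX, was tested as an interaction. It was called for 0 members in the higher and 4 in the lower direction, where 2.99% of all genes were called higher and 3.2% lower. All 4 were SR proteins, Srsf10, Srsf6, Srsf7 and Srsf4, and 10 of 12 tested SR proteins had an interaction below 0. Over all SR proteins its median was -0.51, and over hnRNP proteins -0.13. No kinase and no hnRNP protein was called in this model. Among the edgeR alternatives, Clk2 was called higher with library size alone, and Hnrnpab lower with DESeq2 size factors, with no filter, with at least 10 counts in every library and without any 1 FeSO4/PBS mouse. Hnrnpa0 was called lower with DESeq2 size factors, with no filter and without FeSO4/PBS mouse 2, and Hnrnpa1 without FeSO4/PBS mouse 1.

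Srsf10 showed the pattern most plainly, since its FeSO4 effect was called in opposite directions. With 397, 400.2 and 403 in NaCl/PBS, 535, 543 and 514 in NaCl/DEX, 481, 474 and 463 in FeSO4/PBS and 394, 421 and 395 in FeSO4/DEX mice, it was raised by either treatment alone and was near the NaCl/PBS level after both. The rise after FeSO4 alone is the weak call described above, and that after DEX was not called with library size alone (edgeR FDR 0.079). The FeSO4 effect was 0.24 (edgeR FDR 0.04) in PBS and -0.40 (edgeR FDR 0.0034) in DEX mice, and the interaction -0.64 (SE 0.13, FDR 0.01). The interaction was called in all 12 fits without 1 mouse, in DESeq2 and with each scaling.

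Srsf6 had 2147, 1982 and 1918 in FeSO4/DEX mice, below the 2701, 2304 and 2398 of FeSO4/PBS mice, and an interaction of -0.69 (SE 0.15, edgeR FDR 0.017). Srsf7 had an interaction of -0.71 (SE 0.16, FDR 0.017), with FeSO4 effects of 1.08 in PBS and 0.37 in DEX mice. Srsf4 had 1528, 1630 and 1749 in FeSO4/DEX mice, overlapping with the FeSO4/PBS mice, and an interaction of -0.61 (SE 0.16, FDR 0.042). The Srsf4 call was the weakest, and was lost without any NaCl/PBS mouse, NaCl/DEX mouse 1, FeSO4/PBS mouse 2 or FeSO4/DEX mouse 1 or 2, with FDRs up to 0.096. With library size alone Srsf10 and Srsf7 remained called and Srsf4 and Srsf6 did not.

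**Figure D5:**
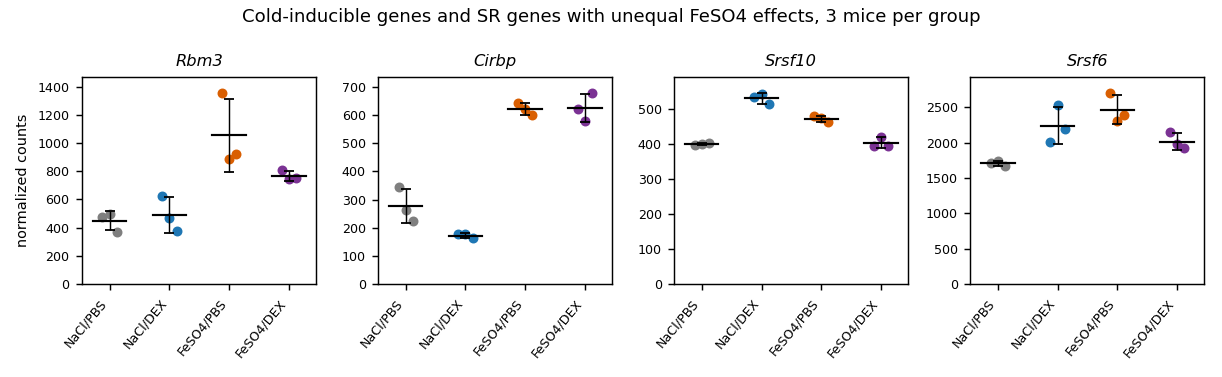
Normalized counts (y axis, from 0) of Rbm3, Cirbp, Srsf10 and Srsf6, 1 point per mouse, with the mean and SD (bars) of the 3 mice of each group. Cirbp is lowest in NaCl/DEX mice and high in both FeSO4 groups, and Srsf10 is higher in NaCl/DEX and FeSO4/PBS than in the other 2 groups.

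Cirbp had the largest interaction in the other direction, 0.70 (SE 0.20, edgeR FDR 0.056), just above the threshold. It was called in DESeq2, with no filter, with at least 10 counts in every library, with library size alone and without NaCl/PBS mouse 3. Next to the threshold in the lower direction were Hnrnpab (FDR 0.052), Hnrnpa0 (FDR 0.063) and Tra2b (FDR 0.07), with interactions of -0.64, -0.59 and -0.54. DESeq2 called 10 members lower in this test, the 4 named above with Hnrnpa0, Hnrnpa1, Hnrnpab, Hnrnpc, Srsf1 and Tra2b. It also called more of all 13857 genes, 562 higher and 747 lower against 414 and 443 with edgeR.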

How the data were processed

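Livers of 12 mice were sequenced as poly(A) RNA with a stranded kit and single-end reads. According to the study's methods and the submitters' processing notes, the authors checked reads with FastQC, aligned them to mm39 with STAR 2.7.10b and deposited whole-number counts per gene, which are not normalized; the strand setting of the counting is not given in the sources used here. The submitters' notes also name DESeq2. Deposited rows carry gene identifiers, of which 54749 of 55414 were named from GENCODE vM39 on GRCm39 and 665 had no name there.

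Counts were filtered with filterByExpr, which kept 13857 genes, scaled with TMM factors (0.871 to 1.16) and tested with edgeR 4.0.16 in R 4.3.3 (limma 3.58.1) in a quasi-likelihood model of 4 group means, with Benjamini-Hochberg adjustment over all 13857 genes. The biological coefficient of variation was 0.169. Library totals ranged from 16335651 to 23827340 reads (median 19602514) and genes detected from 17493 to 18579. DESeq2 1.42.0, DESeq2 size factors, library size alone, no filter, at least 10 counts in every library, an LFC beyond 1, the libraries of a comparison alone, a replicate block and leaving out each mouse were alternatives. Scripts were tested on simulated data. Figures were drawn in Python 3.11.15 with matplotlib 3.10.9.

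The members, lists and tests were chosen with earlier results of these data known. Values per mouse were given for the kinases, Tra2a, Tra2b, Rbm3, Cirbp, Ptbp1 and Ptbp3, for the 4 strongest increases and 4 strongest decreases among the other Srsf and Hnrnp genes in FeSO4/PBS mice, and for members called for DEX or the interaction. Of each list up to 3 genes were named in each direction. Same-numbered mice of different groups did not deviate together (r between -0.112 and 0.154, above 0.1 in 2 of 18 pairs), so that numbers were not used to pair mice. Protein sequences were not used here, and 1 promoter and 1 promoter motif are not reported here.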

Additional observations from a re-analysis of the deposited data

Results flagged for a closer look

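For 4 SR proteins the FeSO4 effect differed between mice that received DEX and mice that received PBS, by the edgeR test of the difference itself, adjusted over all genes. The difference was -0.64 on the log2 scale for Srsf10 (FDR 0.010), -0.71 for Srsf7 (FDR 0.017), -0.69 for Srsf6 (FDR 0.017) and -0.61 for Srsf4 (FDR 0.042), in each case with the lower effect in DEX mice.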

How the results depend on the processing

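The counts depended most on scaling. With library size alone 12 members were higher and 14 lower after FeSO4 in PBS mice, 9 higher and 15 lower in DEX mice, 1 higher and 5 lower after DEX in NaCl mice, and 2 higher and 2 lower for the interaction. All 13857 genes then gave 2285 higher and 5829 lower, 2151 and 4146, 618 and 1776, and 575 and 327, in the same order. The lists then had 18 higher and 7 lower genes (core spliceosome), 15 and 16 (other regulators), and 1 and 4 (SR protein phosphorylation and import). With an LFC beyond 1 as a further condition 7 and 1 members remained after FeSO4 in PBS mice, 2 and 1 in DEX mice, 0 and 0 after DEX in NaCl mice, and 0 lower for the interaction. In the lists this left 10 and 0 genes (core), 6 and 2 (other regulators) and 2 and 1 (nonsense-mediated decay). Of the phosphorylation genes 1 higher and 1 lower remained, Dyrk1a (1.53) and Dyrk1b (-2.31). Of the heat-shock genes 2 lower remained, and Bag3 (2.68), Hspb1 (1.69) and Hspa8 (1.38) were among the higher that did. The share of all genes under this condition was not computed. The interaction had 1 higher and 10 lower members with DESeq2, 1 and 7 with no filter, and 1 and 5 with at least 10 counts in every library. In the same order all tested genes gave 562 higher and 747 lower of 13857, 683 and 776 of 25013, and 381 and 406 of 11231. With no filter 1 member was lower after DEX in FeSO4 mice, and 2 phosphorylation genes were higher, as they were with the libraries of the comparison alone. The cause of these shifts was not tested.

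When 1 mouse was left out, the higher and lower members ranged from 19 to 23 and 7 to 9 after FeSO4 in PBS mice. They ranged from 11 to 15 and 9 to 11 in DEX mice, and from 2 to 8 and 1 to 1 after DEX in NaCl mice. For the last of these, all tested genes gave 606 higher without NaCl/PBS mouse 1, where 2 members were higher. They gave 1284 higher without FeSO4/PBS mouse 1, where 8 members were higher. The interaction ranged from 0 to 1 higher and 3 to 6 lower. Core genes ranged from 26 to 32 higher and 1 to 2 lower, and phosphorylation genes from 2 to 4 higher and 1 to 2 lower. Heat-shock genes ranged from 4 to 7 higher and 2 to 4 lower.

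After FeSO4 in PBS mice the sign turned for Clk4 with library size alone (-0.27) and without NaCl/PBS mouse 2 (-0.026), and with library size alone for Srsf10 (-0.079), Hnrnpf (-0.018), Hnrnpk (-0.057), Hnrnpa2b1 (-0.21), Hnrnpa3 (-0.14) and Ptbp1 (-0.13). For Srpk1 it turned with DESeq2 size factors (0.0013), with DESeq2 (0.0021) and without NaCl/PBS mouse 2 (0.016) or FeSO4/PBS mouse 2 (0.036) or 3 (0.022). Over all fits without 1 mouse Clk4 ranged from -0.026 to 0.15, and Srpk1 from -0.11 to 0.036.

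A replicate block gave 20 higher and 9 lower members after FeSO4 in PBS mice, 13 and 11 in DEX mice, 6 and 1 after DEX in NaCl mice, 0 and 0 in FeSO4 mice, and 0 and 3 for the interaction. Srsf12 and Srsf19 had too few reads to be tested, and 3 mice a group cannot go below p = 0.1 in an exact permutation test.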
